A study of Mus musculus with 10 samples.

Results

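The genes described here are those that carry liver cells through G1, the phase of the cell cycle before DNA is copied: the D cyclins Ccnd1, Ccnd2 and Ccnd3, the E cyclins Ccne1 and Ccne2, their kinases Cdk2, Cdk4 and Cdk6, and the inhibitors Cdkn1b and Cdkn2c. They were chosen by gene symbol in the platform annotation, with every probe set of each gene, and make up 10 of the 18193 genes that the annotation names by exactly 1 symbol. The array carries 27 probe sets for them. RNA of livers was hybridised to Affymetrix expression arrays. The animals were males of C57BL/6 NHsd, a laboratory inbred strain. Mice received PBS (2 arrays), lipid nanoparticles with a control siRNA (4 arrays) or the same kind of particle with siRNAs against all Rab5 genes (4 arrays), which encode small GTPases of the early endosome. The siRNA dose was 1.5 mg/kg into the tail vein, and livers were taken on day 5 after cervical dislocation. Sample titles call the control siRNA a scrambled non-targeting one, while the design text names luciferase, so it is called control siRNA here. Knockdown was systemic through particles and not driven from a transgene, and the RNA is that of whole liver.

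D cyclins are made when growth factors signal. They bind the kinases CDK4 and CDK6, which start to phosphorylate the retinoblastoma protein, and E cyclins with CDK2 complete this, so that E2F factors can switch on the genes of DNA synthesis. The INK4 inhibitors, among them p18 from Cdkn2c, bind CDK4 and CDK6 directly, while the CIP/KIP inhibitors, among them p27 from Cdkn1b, bind cyclin and kinase together. Most hepatocytes of an adult liver rest outside the cycle and re-enter it after tissue loss, when cyclin D1 is the D cyclin best known to rise.

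Values are log2 expression values as deposited, and a change is a difference of group means on that scale, so that 1 unit is a doubling. Probe sets differ in brightness for reasons of their own, so no level is set against that of another probe set. A probe set was kept when 2 or more arrays read above 4.33, the median over the table. This kept 24281 probe sets, 21 of them of 9 of the 10 genes, and none of these 21 passed through 1 group alone. An adjusted p is that of limma after Benjamini-Hochberg adjustment over all kept probe sets, and "called" means an adjusted p under 0.05. Titles number the livers without saying that every number is a separate mouse. A p-value here sets a difference against the spread between these arrays only.

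The knockdown is seen in the targeted genes. Rab5a fell by 1.81 (SE 0.176, adjusted p = 1.49e-05 by limma) and Rab5c fell by 1.99 (SE 0.111, adjusted p = 2.47e-07 by limma), while the dim Rab5b probe set changed by -0.24 (adjusted p = 0.207). Array medians lay between 4.29 and 4.37. Arrays of a group correlated with r from 0.977 to 0.992 across probe sets, which are not independent replicates, and arrays of different groups with r from 0.947 to 0.991. The array numbered 2 stood apart in each group by its ratio of 3' to 5' Gapdh probe sets, with a log2 difference of 2.58 to 2.86 against 2.15 to 2.38 in the other arrays. For actin this difference was 2.59 to 2.75 with Rab5 siRNA, 2.84 to 3.23 with control siRNA, and 2.83 and 3.13 with PBS. Every Rab5 siRNA array thus lay below every other array in the actin measure, and its part in the changes was not tested. Leaving out both siRNA arrays numbered 2, 5 G1 probe sets were called for Rab5 siRNA against control siRNA, and 3074 over the whole array.

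Between Rab5 siRNA and control siRNA, 7 of the 21 kept G1 probe sets rose and 0 fell. They belong to 5 genes: Ccnd1 with all 3 of its probe sets, and Ccne1, Cdk4, Cdk6 and Cdkn2c with 1 each. Over the whole array 21.1% of kept probe sets were called, 12.2% higher and 8.96% lower. Without adjustment, 12 of the 21 had a p under 0.05, against 33.1% of the array, and without the filter 6 of the 27 were called, against 10.9%. The median change was 0.30 over the 21 kept probe sets, 0.29 over all 27, and -0.0053 over all kept probe sets of the array. In 8 of the 21 every Rab5 siRNA array lay above every control siRNA array and in 0 below, against 12.7% above and 10.8% below over the array. With the replicate number in the titles as a block, 12 were called, the added ones being 3 of Ccnd2, the other of Ccne1 and a second of Cdk4. With 1 probe set per gene 4 genes were called, and with the mean of each gene's kept probe sets 3.

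**Figure D1:**
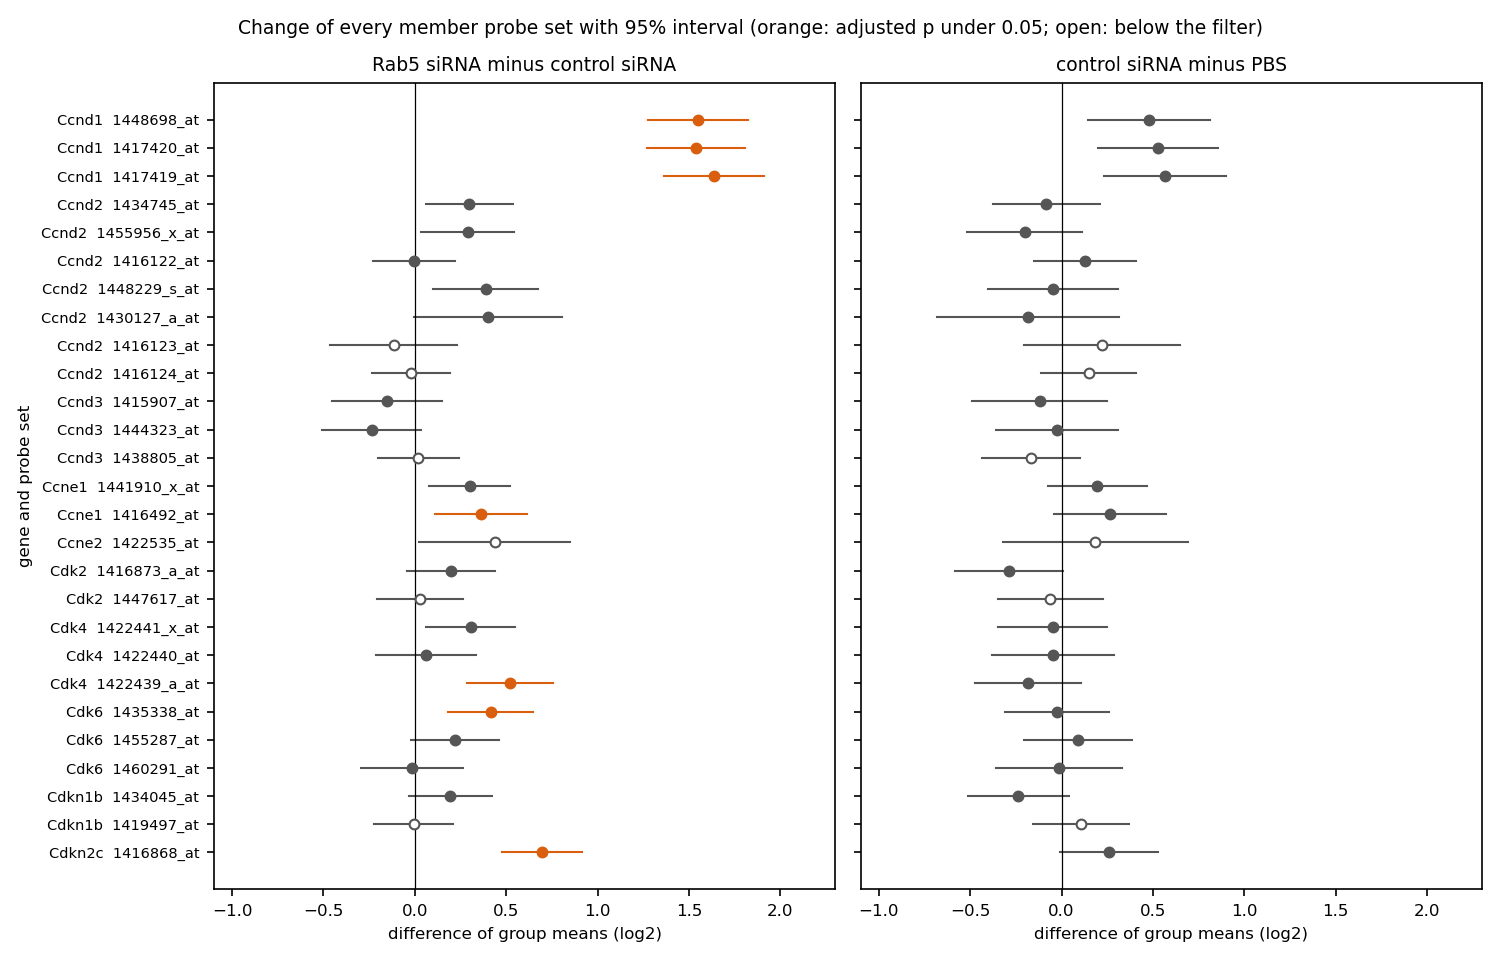
Difference of group means on the log2 scale for each of the 27 probe sets of the G1 genes, Rab5 siRNA minus control siRNA on the left and control siRNA minus PBS on the right, with 95% intervals from the limma fit (orange for called, open points below the filter). On the left the 3 Ccnd1 probe sets lie between 1.54 and 1.63, Cdkn2c at 0.70 and the others between -0.24 and 0.52; on the right none is called.

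For a view of the DNA in front of these genes, the 250 bases before the outermost RefSeq start of transcription are printed for 3 genes with a called rise and for Cdk2, which had none. Sequences are from RefSeq, mouse build GRCm38.p6, in the direction of the gene. Entries were found for 7 of the 10 genes, and Ccnd1, Ccnd2 and Ccne2 had none, so they were not searched. Both strands were searched for the E-box CACGTG, a word bound by MYC and related factors, for the GC box GGGCGG, a word bound by SP1, for the cyclic AMP response element TGACGTCA, and for the E2F words TTTCCCGC or TTTCGCGC or TTTGCCGC or TTTGGCGC. In the lines below, capitals mark the E-box in Cdk4, the GC box in Ccne1 and Cdkn2c, and the E2F word in Cdk2, on either strand, and no marked match shares a base with a match to another word. Cdk4 lies at chr10:127063285-127063534 on the plus strand, Ccne1 at chr7:38107491-38107740 on the minus strand, Cdkn2c at chr4:109666757-109667006 on the minus strand and Cdk2 at chr10:128705052-128705301 on the minus strand.
Cdk4: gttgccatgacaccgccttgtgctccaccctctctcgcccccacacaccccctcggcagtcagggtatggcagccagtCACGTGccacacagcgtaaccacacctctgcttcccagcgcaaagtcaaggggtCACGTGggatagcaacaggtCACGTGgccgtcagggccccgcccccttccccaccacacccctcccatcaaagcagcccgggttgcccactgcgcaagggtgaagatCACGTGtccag
Ccne1: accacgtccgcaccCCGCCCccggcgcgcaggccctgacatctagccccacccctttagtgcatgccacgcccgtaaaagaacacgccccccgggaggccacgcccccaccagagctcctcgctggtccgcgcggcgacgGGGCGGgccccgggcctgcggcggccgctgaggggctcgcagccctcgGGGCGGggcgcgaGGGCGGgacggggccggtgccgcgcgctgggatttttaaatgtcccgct
Cdkn2c: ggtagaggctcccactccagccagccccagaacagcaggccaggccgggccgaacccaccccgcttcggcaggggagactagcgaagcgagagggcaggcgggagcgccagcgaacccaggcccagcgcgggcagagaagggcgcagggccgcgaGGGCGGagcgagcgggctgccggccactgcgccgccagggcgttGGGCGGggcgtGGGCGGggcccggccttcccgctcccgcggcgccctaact
Cdk2: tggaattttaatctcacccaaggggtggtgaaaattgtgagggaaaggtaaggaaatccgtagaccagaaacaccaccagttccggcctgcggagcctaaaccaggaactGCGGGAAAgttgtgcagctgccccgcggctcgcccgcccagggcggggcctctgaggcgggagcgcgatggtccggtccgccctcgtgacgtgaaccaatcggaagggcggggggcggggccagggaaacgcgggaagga

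The Cdk4 window holds 4 E-boxes, whose first bases lie 172, 118, 98 and 11 bases before the start. It also holds a GC box at 80, left in lower case. An E-box occurs in 6.02% of the 32851 mouse windows of this length, and 4 or more occur in 7 windows, which is 0.0213%. The cut of 4 is the number in Cdk4 itself, and no share for several GC boxes was counted. Ccne1 holds 4 GC boxes, at 236, 110, 62 and 49 bases before the start, and Cdkn2c holds 3, at 95, 51 and 40. The window of another, inner Cdkn2c start holds 0 GC boxes. The GC box is common and occurs in 32.7% of windows. Of the windows not printed, those of Ccnd3 hold 2 at the outermost start and 1 at an inner start, and that of Cdkn1b holds 1. Neither of these genes was called. The window of Cdk6, which lies at an inner start, holds 1 E-box and 0 GC boxes. The Cdk2 window holds 1 E2F word, at 140 bases before the start, where 1.86% of all windows hold such a word, and 5 GC boxes, which are left in lower case. The cyclic AMP word occurs in 1.55% of windows and in 0 of the G1 gene windows searched. Ccnd1, Ccnd2 and Ccne2 had no window, so whether they carry the word was not examined. These are matches of letters and no measure of binding.

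Ccnd1, the D cyclin that links mitogen signals to CDK4 and CDK6, had the largest change of the G1 genes, and rose with all 3 of its probe sets. By its brightest probe set, 1448698_at, the PBS arrays read 8.15 and 7.79 and the control siRNA arrays 8.65, 8.50, 8.33 and 8.30. The Rab5 siRNA arrays read 9.92, 9.84, 10.26 and 9.95. All Rab5 siRNA arrays lay above all control siRNA arrays, and these in turn above both PBS arrays. The group means were 7.97 ± 0.255 (SD, n = 2) for PBS, 8.44 ± 0.162 (SD, n = 4) for control siRNA and 9.99 ± 0.185 (SD, n = 4) for Rab5 siRNA.

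For Rab5 siRNA against control siRNA the Ccnd1 change was 1.55 (SE 0.126, adjusted p = 3.72e-06 by limma), a fold of 2.93. The second probe set, 1417420_at, rose by 1.54 (SE 0.125, adjusted p = 3.65e-06), and the third, 1417419_at, by 1.63 (SE 0.126, adjusted p = 2.59e-06). Their rises ranked 170, 178 and 147 among the 24281 kept probe sets. Rab5 siRNA against PBS, which uses the same Rab5 siRNA arrays, gave 2.03, 2.06 and 2.20 for the 3 probe sets, with adjusted p of 2.69e-06, 2.22e-06 and 1.76e-06 by limma. The 3 probe sets moved by amounts within the spread between arrays, with an unequal change of 0.0133 between the first and the second (exact permutation p = 0.943, two-sided).

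**Figure D2:**
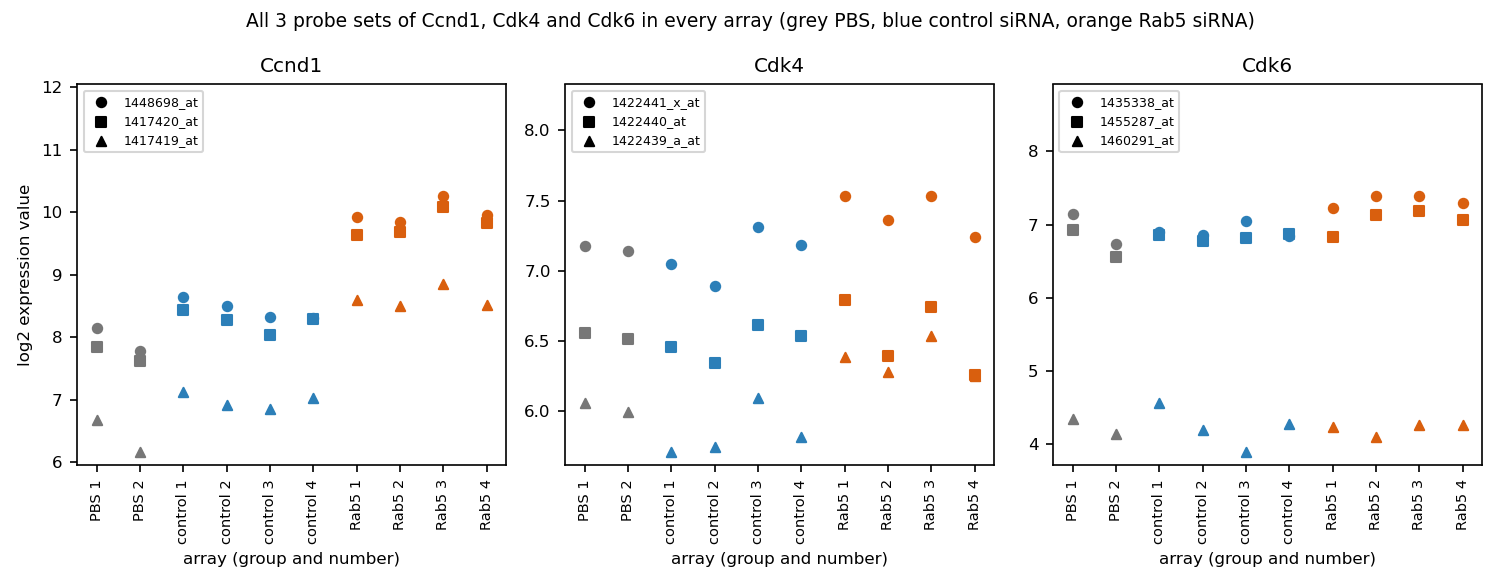
Log2 expression values of the 3 probe sets each of Ccnd1, Cdk4 and Cdk6 in each array, with a marker shape per probe set and a colour per group (grey PBS, blue control siRNA, orange Rab5 siRNA). All 3 Ccnd1 probe sets are higher in all 4 Rab5 siRNA arrays than in any other array, while 1422440_at of Cdk4 and 1460291_at of Cdk6 overlap between the groups.

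Ccnd2, the D cyclin known from growth-factor responses in many tissues, is measured by 7 probe sets, and 0 of the 5 kept ones were called. The probe set nearest to the threshold, 1448229_s_at, whose suffix marks probes shared with other transcripts, read 5.72 and 5.19 with PBS and 5.25, 5.29, 5.48 and 5.61 with control siRNA. With Rab5 siRNA it read 5.64, 5.69, 5.91 and 5.94. The siRNA groups did not overlap, but the 2 PBS arrays lay on either side of the control siRNA range. Its change was 0.39 (SE 0.134, adjusted p = 0.0573 by limma), and 0.0269 was the adjusted p with the replicate block. It passed the threshold also without either PBS array (0.0361), without control siRNA replicate 4 (0.041) and without Rab5 siRNA replicate 1 (0.0405). Leaving out either PBS array repeats the fit of the siRNA groups alone.

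Of the other kept Ccnd2 probe sets, 1430127_a_at had a change of 0.40 (adjusted p = 0.158 by limma), 1434745_at of 0.30 (0.0749), 1455956_x_at of 0.29 (0.106) and 1416122_at of -0.01 (0.981). With the replicate block, 1434745_at had an adjusted p of 0.0444 and 1455956_x_at of 0.0467, and 1434745_at also passed without Rab5 siRNA replicate 1 (0.0339). The dim pair outside the filter, 1416123_at and 1416124_at, had changes of -0.12 and -0.02. The Ccnd2 probe sets therefore span changes from -0.12 to 0.40.

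Ccnd3, the D cyclin best known from lymphoid cells, had changes on the other side of 0 in its kept probe sets, and neither was called. Probe set 1415907_at read 7.56 and 7.43 with PBS, 7.66, 7.20, 7.38 and 7.26 with control siRNA and 7.50, 7.13, 7.34 and 6.91 with Rab5 siRNA. The 3 groups overlapped, and their means stood in the order PBS, control siRNA, Rab5 siRNA from high to low without a step beyond the spread. In same-numbered arrays Rab5 siRNA was below control siRNA in 4 of 4 pairs, by differences of -0.16, -0.07, -0.03 and -0.36. The change was -0.15 (95% interval -0.45 to 0.15, adjusted p = 0.482 by limma, 0.287 with the replicate block). Probe set 1444323_at had a change of -0.24 (95% interval -0.51 to 0.04, adjusted p = 0.214, or 0.163 with the replicate block) and was lower in 4 of 4 pairs, and the dim 1438805_at had 0.02.

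The D cyclins were compared with each other by the difference of their log2 values in each array, using each gene's brightest kept probe set. The change of Ccnd1 exceeded that of Ccnd2 by 1.25 and that of Ccnd3 by 1.70, each with an exact two-sided permutation p of 0.0286, the smallest that 4 arrays against 4 allow over 70 arrangements. After Benjamini-Hochberg adjustment over the 7 gene pairs tested, both stood at 0.05, which is at and not under the threshold. For Ccnd2 against Ccnd3 the unequal change was 0.45 (exact permutation p = 0.0857, adjusted 0.12). Pairing arrays by number and flipping signs allows no p below 0.125 over 16 arrangements.

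**Figure D3:**
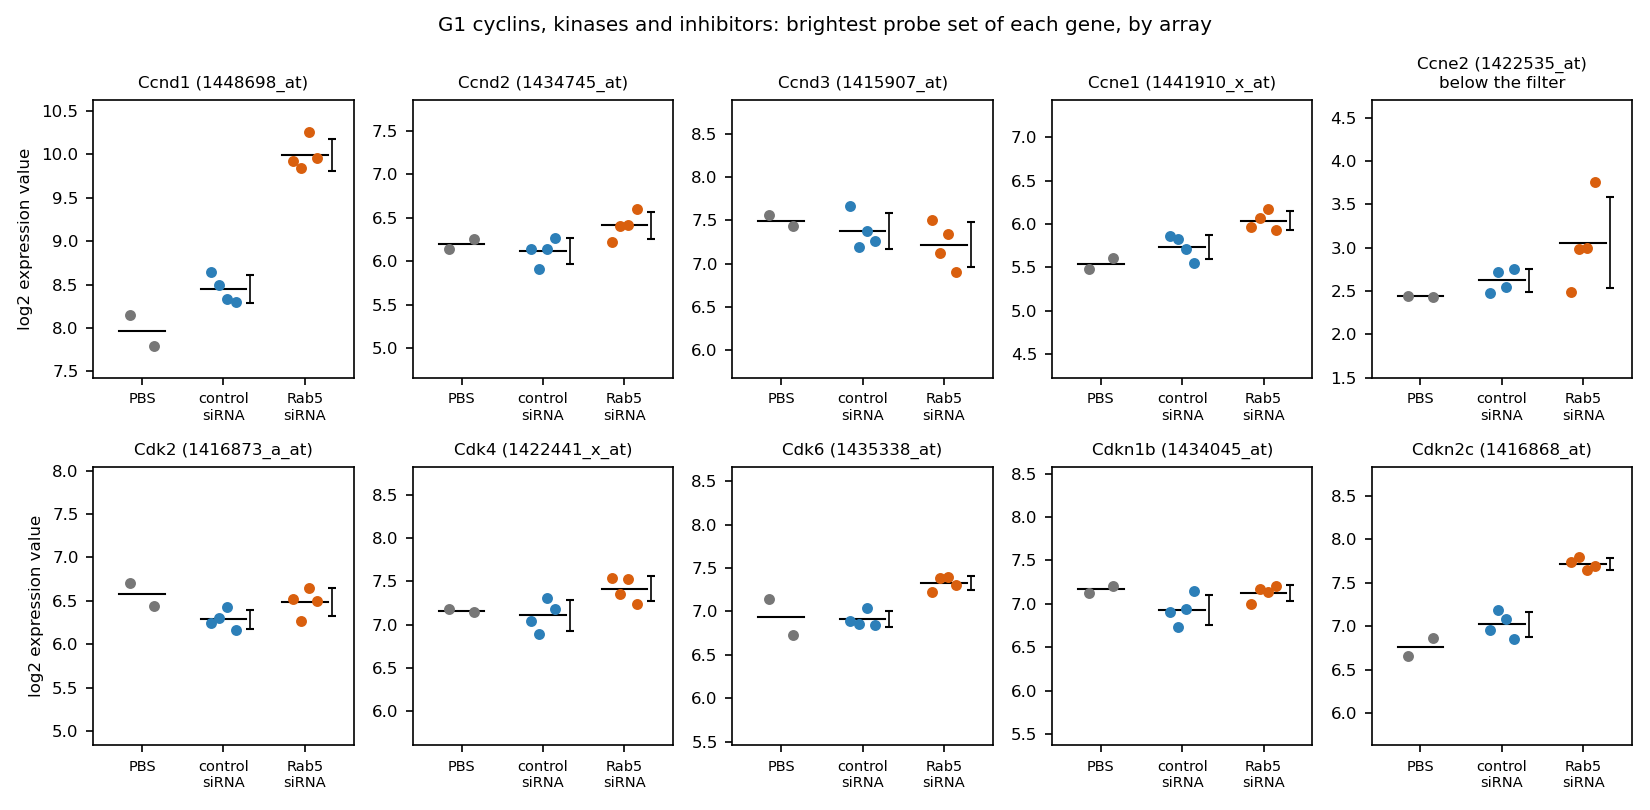
Log2 expression values of the 10 G1 genes in the 10 arrays, each gene by its brightest probe set, with group means and, for the siRNA groups, SD bars; every panel spans the same number of log2 units. Ccnd1 and Cdkn2c show Rab5 siRNA arrays clear of the control siRNA arrays, while Ccnd3, Cdk2 and Cdkn1b overlap.

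The E cyclins, which activate CDK2 late in G1, had smaller changes than Ccnd1. Ccne1 probe set 1416492_at read 4.80 and 4.93 with PBS, 5.06, 5.23, 5.27 and 4.94 with control siRNA and 5.26, 5.56, 5.70 and 5.44 with Rab5 siRNA. Only the lowest Rab5 siRNA array fell within the control siRNA range. The rise was 0.36 (SE 0.116, adjusted p = 0.0413 by limma), a fold of 1.29, and against PBS it was 0.63 (adjusted p = 0.00882).

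This Ccne1 call sat close to the threshold and was kept in 8 of 19 alternatives, with values between 0.29 and 0.44 and adjusted p between 0.0129 and 0.127. It was lost without control siRNA replicates 1 (0.0975), 2 (0.0504) or 4 (0.109), without Rab5 siRNA replicates 2 (0.108), 3 (0.127) or 4 (0.0622), and without either PBS array (0.0523). Both PBS omissions and the fit of the siRNA groups alone are 1 and the same fit, yet each counts among the 19. The other probe set, 1441910_x_at, read 5.48 and 5.60 with PBS, 5.87, 5.82, 5.71 and 5.55 with control siRNA and 5.97, 6.07, 6.17 and 5.93 with Rab5 siRNA. The siRNA groups did not overlap, and the change was 0.30 (SE 0.103, adjusted p = 0.0548 by limma, 0.0387 with the replicate block). It was called also with array weights (0.0204), with 1 probe set per gene (0.0487) and without the arrays numbered 1 (0.0461). The mean of both Ccne1 probe sets was called too (0.33, adjusted p = 0.0293 by limma), and the remaining alternatives left 1441910_x_at uncalled. Against PBS its change was 0.49 (adjusted p = 0.0168), which was lost without PBS replicate 1 (0.158), PBS replicate 2 (0.0611) or both siRNA arrays numbered 2 (0.057). The 1416492_at call against PBS was lost without PBS replicate 1 (0.104).

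Ccne2, the other E cyclin, has 1 probe set, 1422535_at, which lay below the filter in all 3 groups. It read 2.44 in both PBS arrays, 2.47, 2.72, 2.55 and 2.75 with control siRNA and 2.49, 2.98, 3.00 and 3.76 with Rab5 siRNA. A wide spread set the Rab5 siRNA group apart, from a value inside the control siRNA range to the highest of all arrays. In the fit without the filter the change was 0.44 (SE 0.193, adjusted p = 0.187 by limma), and without Rab5 siRNA replicate 1 it was 0.63 (adjusted p = 0.0221). Values this low are close to the floor of the array, where differences are compressed. The pair of E cyclins was not compared, since Ccne2 was not kept.

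Cdk4, a partner of the D cyclins, is measured by 3 kept probe sets, of which 1 was called. Probe set 1422439_a_at read 6.06 and 6.00 with PBS, 5.71, 5.75, 6.10 and 5.82 with control siRNA and 6.39, 6.28, 6.53 and 6.25 with Rab5 siRNA. The lowest Rab5 siRNA array lay above the highest array of either other group. It rose by 0.52 (SE 0.11, adjusted p = 0.0042 by limma), a fold of 1.44, and was called in 20 of 20 alternatives. These leave out the summaries to 1 value per gene, in which Cdk4 was not called.

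Probe set 1422440_at of Cdk4 read 6.46, 6.34, 6.61 and 6.53 with control siRNA and 6.79, 6.39, 6.74 and 6.26 with Rab5 siRNA, and these overlapped. Its change was 0.06 (95% interval -0.21 to 0.33, adjusted p = 0.784 by limma). The third, 1422441_x_at, had a change of 0.31 (SE 0.113, adjusted p = 0.0715), with 0.0473 under the replicate block, 0.0421 without control siRNA replicate 3 and 0.0488 without Rab5 siRNA replicate 4. The change of 1422440_at differed from that of 1422439_a_at by -0.46 (exact two-sided permutation p = 0.0286, adjusted over 21 pairs of probe sets 0.24). Against PBS, no Cdk4 probe set was called, and 1422439_a_at had a change of 0.34 (adjusted p = 0.117 by limma).

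Cdk6, the other D cyclin kinase, also had 3 kept probe sets, of which 1 was called. Probe set 1435338_at read 7.15 and 6.73 with PBS, 6.89, 6.86, 7.04 and 6.85 with control siRNA and 7.22, 7.38, 7.39 and 7.30 with Rab5 siRNA. The Rab5 siRNA arrays lay above all others, though the first PBS array came close to the lowest of them. It rose by 0.41 (SE 0.108, adjusted p = 0.0145 by limma), a fold of 1.33. This was lost when both siRNA arrays numbered 2 were left out (0.38, adjusted p = 0.101) and with the mean of the gene's kept probe sets (0.21, adjusted p = 0.141). Probe sets 1455287_at and 1460291_at had changes of 0.22 (adjusted p = 0.189) and -0.02 (0.95). Against PBS 1435338_at had a change of 0.39 (adjusted p = 0.0664 by limma), and it passed there without PBS replicate 1 (0.0318).

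Cdk2, the kinase of the E cyclins, was not called. Probe set 1416873_a_at read 6.71 and 6.44 with PBS, 6.24, 6.31, 6.43 and 6.17 with control siRNA and 6.52, 6.27, 6.65 and 6.50 with Rab5 siRNA. Control siRNA arrays were the lowest of the 3 groups, all below both PBS arrays, and the Rab5 siRNA arrays overlapped both. The change from control siRNA to Rab5 siRNA was 0.20 (95% interval -0.04 to 0.44, adjusted p = 0.238 by limma). The dim 1447617_at had 0.03.

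Between kinases, Cdk2 minus Cdk6 gave an unequal change of -0.22 in the array-wise comparison by the brightest probe sets (exact two-sided permutation p = 0.0286, adjusted 0.05, which is not under the threshold). It rests on 1435338_at of Cdk6, since with the mean of each gene's kept probe sets it was -0.0083 (exact permutation, adjusted p = 0.971). Cdk2 against Cdk4 gave -0.11 (exact permutation p = 0.429), and Cdk4 against Cdk6 also -0.11 (exact permutation p = 0.314, adjusted 0.367), which turned to 0.089 with the mean of probe sets. Neither of the last pairs differed beyond the spread between arrays, which does not show that their changes were equal.

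Cdkn2c, which encodes the INK4 inhibitor p18, rose. Its 1 probe set, 1416868_at, read 6.66 and 6.86 with PBS, 6.96, 7.18, 7.08 and 6.86 with control siRNA and 7.74, 7.80, 7.64 and 7.69 with Rab5 siRNA. The Rab5 siRNA arrays lay close together and clear of both other groups. The rise was 0.70 (SE 0.101, adjusted p = 0.000294 by limma), a fold of 1.62, with a range of 0.64 to 0.75 over 22 alternatives that all kept the call. Against PBS it was 0.96 (adjusted p = 0.000193).

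Cdkn1b, which encodes the CIP/KIP inhibitor p27, was not called. Probe set 1434045_at read 7.13 and 7.21 with PBS, 6.90, 6.74, 6.94 and 7.15 with control siRNA and 6.99, 7.17, 7.13 and 7.20 with Rab5 siRNA. The highest control siRNA array lay inside both other groups. The change was 0.19 (95% interval -0.03 to 0.42, adjusted p = 0.217 by limma), and -0.04 against PBS. The dim 1419497_at had -0.01. The change of Cdkn1b was below that of Cdkn2c by 0.50 in the array-wise comparison (-0.50, exact two-sided permutation p = 0.0286, adjusted 0.05).

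Control siRNA against PBS tests the particles with their cargo, with only 2 PBS arrays. In it 0 of the 21 kept G1 probe sets were called, as were 0% of all kept probe sets, by limma. At an unadjusted p under 0.05 there were 3 G1 probe sets, all of Ccnd1, beside 4.39% of the array. The Ccnd1 changes were 0.48 (SE 0.155, adjusted p = 0.984), 0.53 (SE 0.153, adjusted p = 0.877) and 0.56 (SE 0.155, adjusted p = 0.794) by limma. They fail the adjustment, although all 4 control siRNA arrays lay above both PBS arrays in each. Groups did not overlap in 4 probe sets that were higher, those of Ccnd1 and 1416492_at of Ccne1, and in 1 that was lower, 1416873_a_at of Cdk2 with -0.29 (adjusted p = 0.999 by limma). Over the array 6.44% were higher and 6.59% lower without overlap.

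Rab5 siRNA against PBS called 6 of the 21 kept probe sets, all higher and of 3 genes: Ccnd1, Ccne1 and Cdkn2c. Over the array 15.4% were called, 8.39% higher and 7.04% lower. In 9 of the 21 the Rab5 siRNA arrays lay above both PBS arrays without overlap, and in 0 below, where the array as a whole had 18.6% above and 17.7% below. Without PBS replicate 1, 1816 probe sets of the array were called against 3746 with all arrays, and without PBS replicate 2, 2110.

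Genes around this pathway were counted in 7 lists by role, 1 probe set per gene. Of 57 listed genes 49 were kept, and 21 rose and 3 fell between control siRNA and Rab5 siRNA. Over the 12855 kept genes with 1 symbol, 22.5% were called, 13.3% higher and 9.16% lower, and the median change was 0.0026.

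**Figure D4:**
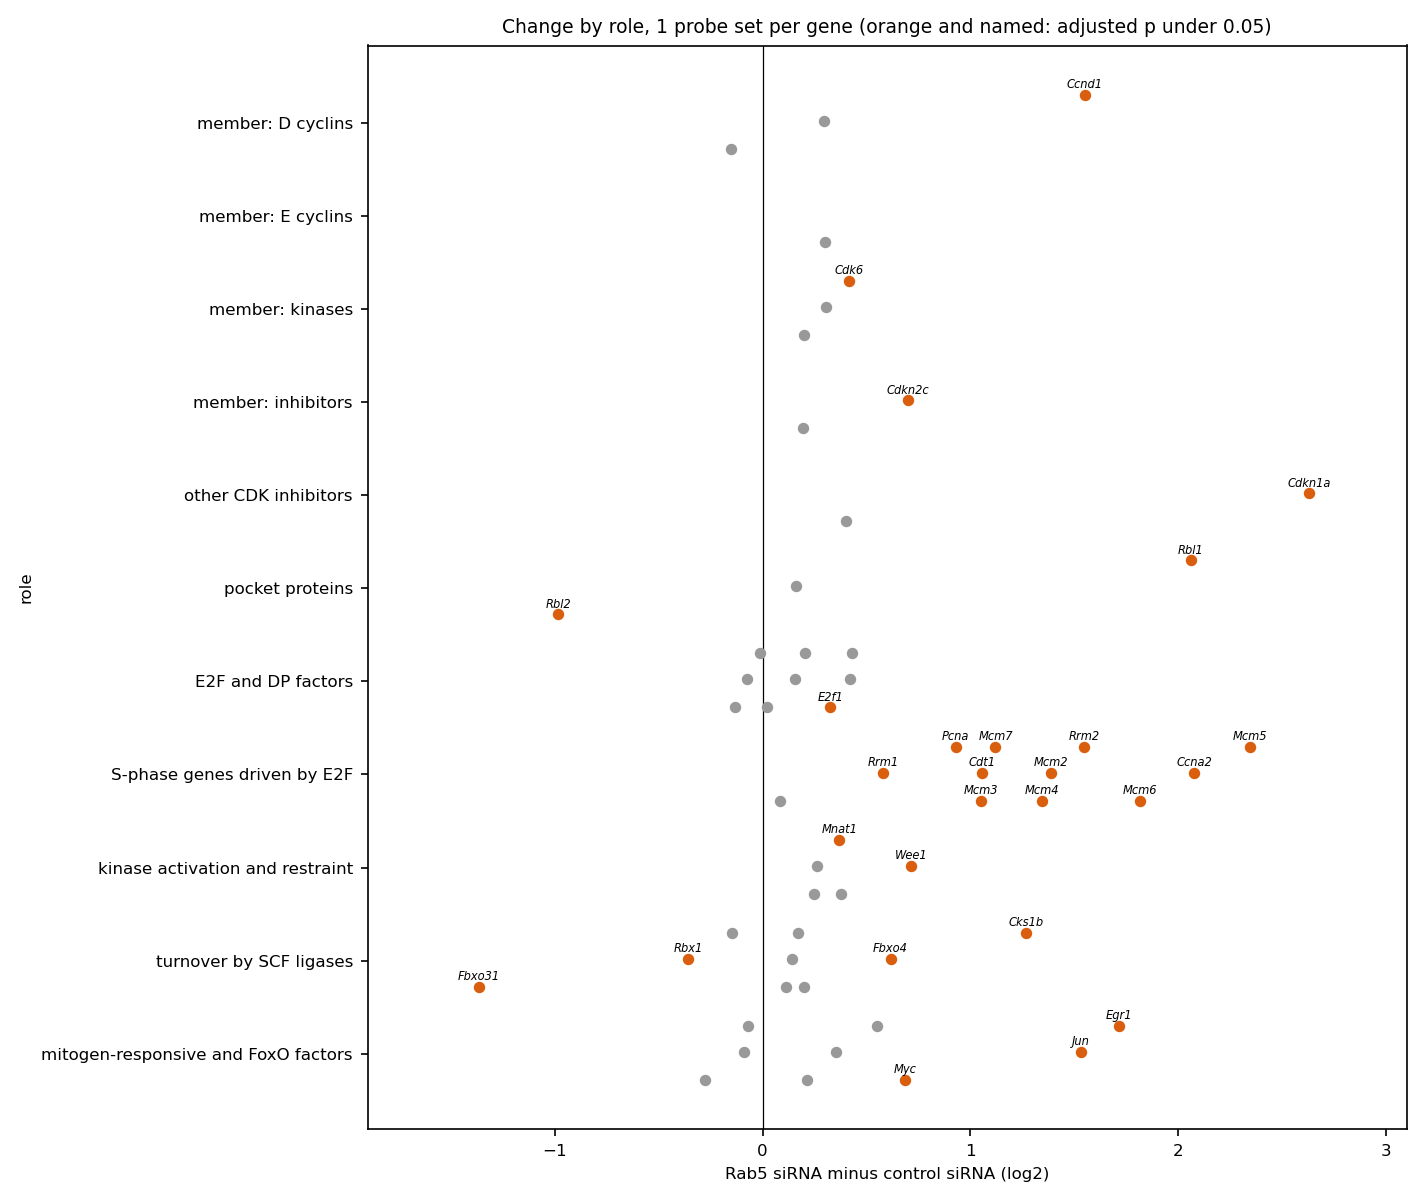
Rab5 siRNA minus control siRNA change on the log2 scale for 1 probe set per gene, in rows by role, the G1 genes first; called genes are orange and named, others grey. Cdkn1a, at 2.63, lies farthest to the right, ahead of Mcm5, Ccna2 and Rbl1, and Fbxo31 and Rbl2 lie farthest to the left.

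Among other CDK inhibitors 2 of 5 listed genes were kept and 1 rose. Cdkn1a, which encodes p21, read 8.21 and 8.18 with PBS, 7.54, 7.14, 7.21 and 6.69 with control siRNA and 9.76, 9.95, 9.76 and 9.64 with Rab5 siRNA. Control siRNA arrays were below and Rab5 siRNA arrays above both PBS arrays. It rose by 2.63 against control siRNA (SE 0.151, adjusted p = 2.47e-07 by limma) and by 1.58 against PBS (adjusted p = 8.65e-05), while control siRNA against PBS gave -1.05 (adjusted p = 0.146). The other kept gene, Cdkn2d, another INK4 inhibitor, had a change of 0.40 (adjusted p = 0.0623).

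All 3 pocket proteins, the targets of the G1 kinases, were kept, and 1 rose and 1 fell. Rbl1, which encodes p107, averaged 4.00 ± 0.222 with control siRNA and 6.06 ± 0.658 with Rab5 siRNA (SD, n = 4 arrays each), and rose by 2.06 (adjusted p = 7.97e-05 by limma). Its control siRNA arrays read 3.78 to 4.31, all below the cut of the filter, and its PBS arrays 4.33, barely above the cut, and 4.01. Without the Rab5 siRNA arrays Rbl1 would not have been kept, and values this dim are compressed. Rbl2, which encodes p130, the form associated with resting cells, averaged 5.56 ± 0.276 and 4.58 ± 0.205 (SD, n = 4 arrays each), and fell by 0.98 (adjusted p = 0.000717). Rb1 itself had 0.16 (adjusted p = 0.498). Neither Rbl1 nor Rbl2 groups overlapped.

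Of the 10 E2F and DP factors, 9 were kept and 1, E2f1, rose, by 0.32 (SE 0.0964, adjusted p = 0.029 by limma). That call held in 15 of 22 alternatives and was lost without control siRNA replicates 3 or 4 and without Rab5 siRNA replicates 3 or 4, with adjusted p up to 0.0814. E2f7, below the filter in all arrays, had a change of 0.51 in the fit without the filter (adjusted p = 0.0147 by limma). In the list of S-phase genes driven by E2F, 11 of the 12 kept genes rose, of 15 listed. Below the filter, Cdc6 had 1.03 (adjusted p = 0.000159 by limma) and Tyms 0.16 (adjusted p = 0.546) in the fit without it. Mcm5 rose by 2.35 (adjusted p = 1.37e-07) and Mcm6 by 1.81 (adjusted p = 2.45e-06), both subunits of the replicative helicase. Ccna2, the S-phase cyclin, rose by 2.08 (adjusted p = 8.51e-06). Without the arrays numbered 2 the call of Rrm1 was lost (adjusted p = 0.0704). Tk1, thymidine kinase, was the kept gene that was not called, with 0.08 (adjusted p = 0.60).

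Of the genes that activate or restrain the kinases 2 of 5 rose: Wee1, the kinase that puts the inhibitory phosphate on CDKs, by 0.71 (adjusted p = 0.00376 by limma), and Mnat1, a part of the CDK-activating kinase, by 0.37 (adjusted p = 0.0138). Without the arrays numbered 2 the Mnat1 call was lost, with an adjusted p of 0.0724, and against PBS Mnat1 was not called (0.25, adjusted p = 0.191). Among the 9 kept genes of turnover by SCF ubiquitin ligases 2 rose and 2 fell. Cks1b, which helps the ligase bind p27, rose by 1.27 (adjusted p = 2.48e-06), and Fbxo4, a subunit of a ligase, by 0.62 (adjusted p = 0.00242). Fbxo31, likewise a subunit of a ligase, fell by 1.37 (adjusted p = 0.000276). Rbx1, the RING subunit, fell by 0.36 (adjusted p = 0.0136), which was lost without the arrays numbered 1 or 2, with adjusted p up to 0.0828. The level of mRNA says nothing about the stability of the cyclins.

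Of the 9 mitogen-responsive and FoxO factors, all kept, 3 rose. Egr1 rose by 1.71 (adjusted p = 0.00826 by limma), Jun by 1.53 (adjusted p = 0.00232) and Myc, a factor that binds E-boxes, by 0.68 (adjusted p = 0.0221). The Myc call held in 16 of 22 alternatives and was lost without control siRNA replicates 1, 3 or 4 and without Rab5 siRNA replicates 2 or 3, with adjusted p up to 0.0747. The Egr1 call was lost without the arrays numbered 2 (0.0596). Against PBS only Jun was called, with a change of 1.94 (adjusted p = 0.00244 by limma). Egr1 had 0.82 there (adjusted p = 0.313), with 1 PBS array at 10.40, inside the Rab5 siRNA range, and Myc had 0.59 (adjusted p = 0.117). Foxo1 and Foxo3, factors that can raise Cdkn1b, had changes of -0.07 (adjusted p = 0.738) and -0.28 (adjusted p = 0.147).

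The tissue was whole liver, in which fewer cells of a type and less RNA per cell cannot be told apart. Hepatocyte markers were present in all arrays, with a mean level over 9 kept genes of 12.55 to 12.69 in PBS, 12.55 to 12.67 in control siRNA and 12.16 to 12.31 in Rab5 siRNA, and 4 of the 9 fell and 0 rose. Those that fell were Tat (-1.37), Tdo2 (-1.01), Cps1 (-0.35) and Apoa2 (-0.33). Not called were Alb (0.05), Apoa1 (0.18), Ttr (-0.17), Hnf4a (-0.17) and Asgr1 (-0.10), so the fall was not shared by all markers. Over the 12855 kept genes with 1 symbol, 13.3% were called higher and 9.16% lower. All 7 kept markers of proliferating cells rose, of 8 listed. Their mean level was 3.81 to 3.83 in PBS, 3.99 to 4.93 in control siRNA and 6.42 to 7.16 in Rab5 siRNA. Aurkb and Bub1 passed the filter through the Rab5 siRNA group alone, so their rises are no support, yet the count and the mean levels include them. The markers that passed through more than 1 group were Mki67 (2.37), Top2a (2.15), Ccnb2 (2.47), Cdk1 (1.80) and Birc5 (2.72), and all of these rose. The changes of these markers have the same direction as those of Ccnd1 and Cdkn2c, and their part in those results was not tested.

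Markers of other cells were counted against the same shares, which came to 22.5% of genes called in either direction. Lists of 4 to 8 kept genes are too short to be set apart from these shares. Of 11 kept genes of Kupffer cells and macrophages 6 rose, with a mean level of 8.59 to 8.68 in PBS, 8.56 to 8.90 in control siRNA and 8.85 to 9.47 in Rab5 siRNA, where the lowest was replicate 1. Cholangiocyte markers rose in 2 of 4 kept genes (5.85 to 5.89 in control siRNA, 6.27 to 6.44 in Rab5 siRNA). These were Cdh1 (1.02) and Sox9 (0.45), while Krt19 (0.04, adjusted p = 0.855 by limma) and Epcam (0.36, adjusted p = 0.122) were not called. Stellate and fibroblast markers rose in 2 of 8 (up to 6.82 in control siRNA, 6.61 to 7.32 in Rab5 siRNA). Of 5 monocyte and neutrophil markers 1 rose (6.46 to 7.45, 6.85 to 7.35). Endothelial markers had 1 rise and 1 fall among 6 (7.06 to 7.35, 6.96 to 7.30). Of 5 kept lymphocyte markers 1 fell (5.17 to 5.25, 4.76 to 5.01). Among the markers, the calls of Cps1, Marco, Vsig4, C1qb, Cdh5 and Sox9 were each lost when some single arrays were left out. The part of these cells in the changes of the G1 genes was not tested.

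Across the 10 arrays, the genes whose pattern was most like that of Ccnd1 by Pearson's r among 12854 other genes were Sectm1a (0.985), Myo9b (0.982), Cyba (0.982), Tubb5 (0.981) and Cdca5 (0.979). For Ccnd3, whose change was the most negative among the G1 genes by their brightest kept probe sets, though not called, they were Ghrhr (0.979), Mien1 (0.967), Psenen (0.952), Rhot2 (0.948) and Fastk (0.947). These correlations are a description, since the arrays fall into 3 groups and share their scaling, and no test goes with them.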

How the data were processed

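RNA of 10 livers was measured on Affymetrix mouse genome arrays. The deposited table of 45101 probe sets holds log2 values. According to the submitters' processing notes, the authors used Affymetrix Expression Console, RMA and Partek 6.6, listed without roles. RMA equalises array distributions, so a shift of all transcripts would not be seen, and it compresses changes of dim probe sets. No detection calls were used, the genome build is not given in the sources used here, and precision is limited by how many arrays there are.

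After 64 control probe sets were left out, probe sets above the table's median in at least 2 arrays were kept (24281 of 45037). With limma 3.58.1 (lmFit, eBayes; R 4.3.3), 1 model estimated the 3 group means over all 10 arrays, with Benjamini-Hochberg adjustment over the kept probe sets. G1 probe sets outside the filter, and those of E2f7, Cdc6 and Tyms, were taken from the same fit without it. Standard errors are moderated ones. The fit was tested on simulated data. Symbols came from the platform annotation, which gave exactly 1 symbol to 34945 probe sets, several to 932 and none to 9160.

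Unequal changes of gene pairs and of probe sets of a gene were tested by exact two-sided permutation over arrays, each family with its own adjustment. Same-numbered control siRNA and Rab5 siRNA arrays deviated together from their group means, with r from 0.116 to 0.365 over 4 pairs, so the numbers in the titles were taken to pair the arrays and a fit with the number as a block was made. The hint is weak: differently numbered pairs reached r = 0.179, and 3 of the 4 control siRNA arrays had their own number as best partner. The pairing comes from the data and the titles, and the labels name no litter, day or batch.

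The text names all 10 genes with every probe set, from each role list the called genes with the largest changes (up to 3), and the 5 genes most correlated with the G1 genes of largest rise and fall. Rb1, Cdkn2d, E2f7, Cdc6, Tyms, Tk1, Rrm1, Rbx1, Foxo1, Foxo3 and single markers are named besides, chosen after their values were seen. The genes and lists were chosen with earlier results of these data known. Alternatives covered the filter, scaling, weights, prior, groups in the fit, summary of probe sets, block and each array left out. For Rab5 siRNA against control siRNA, leaving out either PBS array repeats the fit of the siRNA groups alone. Counts of alternatives there hold that fit more than once.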

Additional observations from a re-analysis of the deposited data

How the results depend on the processing

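No direction of a called G1 probe set reversed under any alternative. The 3 Ccnd1 probe sets, Cdkn2c and 1422439_a_at of Cdk4 kept their calls against control siRNA in all alternatives run for them. For 1422439_a_at these leave out the summaries to 1 value per gene, in which Cdk4 was not called. The replicate block called 12 G1 probe sets for Rab5 siRNA against control siRNA in place of 7, and 1 probe set of the array for control siRNA against PBS in place of 0; it changed no other call of a G1 probe set in the comparisons with PBS.

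With 1 probe set per gene, in which fewer features are tested, 2993 genes were called for Rab5 siRNA against control siRNA (4 of them G1 genes) and 2201 against PBS (3). With the mean of the kept probe sets these were 2915 (3) and 2183 (3). Without both siRNA arrays numbered 2, and so with fewer arrays, 3074 probe sets were called against control siRNA. For control siRNA against PBS, 2 probe sets were called after quantile normalization, 7 with array weights and 8 without the arrays numbered 1; the cause was not tested. Leaving out 1 array at a time gave 0 to 18 there (18 without control siRNA replicate 4) and 1816 to 4398 for Rab5 siRNA against PBS. For the G1 probe sets, it gave 6 to 9 against control siRNA, 5 to 6 for Rab5 siRNA against PBS, and 0 for control siRNA against PBS. Of single G1 probe sets against control siRNA, 13 values under an alternative lost a call, 20 gained one and 32 uncalled ones changed sign.

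Dim probe sets limit what can be said of Ccne2 and of 5 further G1 probe sets below the filter. Whether each liver is its own mouse is not stated, and no batch is named. The role and marker lists were rerun under the same alternatives, which was added after seeing the data.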
